A study of Gallus gallus with 6 samples.

Results

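A set of 23 gene IDs was well detected in chicken embryos and at or near 0 in cultured chicken embryonic stem (ES) cells. These IDs had the same transcript IDs and similar lengths in the files of both groups. They were chosen by their measured levels. An ID had to be listed in the files of both groups with the same set of transcripts, and its mean model length had to differ by at most 10% between the groups. Its mean level had to be 10 CPM (counts per 1000000) or more in the embryos and under 0.5 CPM in the ES cells. Here CPM is the expected count of an ID per 1000000 expected counts over the 15900 IDs that both groups' files list. Of these IDs, 5256 met the conditions on transcripts and length. They are called same-model IDs below, though their lengths could differ by up to 10%. Among them, 1867 stood at 10 CPM or more in the embryos, and 23 (1.23% of the 1867) also stood under 0.5 CPM in the ES cells. The levels of the members in the 2 groups are therefore a description of how they were selected, and no test of them supports anything here.

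RNA sequencing was done on wild-type (WT) chicken ES cells at passage 10 (cES, 3 libraries) and on wild-type primary cells of freshly laid embryos at stage EGK.X (EGKX, 3 libraries). The ES cells had been derived from embryos of that stage and were grown on irradiated mouse fibroblasts at 38 °C in 5% CO2. Their medium held 2.5 µM IWR-1, 2 µM Gö6983, 2 µM SB431542, and ovotransferrin and chicken LIF at 10 ng/ml each, and no drug treatment is labelled for the embryos. Eggs had been kept at 16 °C before the embryos were taken, and the growth protocol names stages EGK.X to XII for the eggs. The 3 cES libraries carry the same line name. Nothing in the labels tells if each library had its own culture or embryo, and the spread among libraries may thus be technical. The design sets the expression profile of the derived cells beside that of embryos of the stage they came from.

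At the stage that Eyal-Giladi and Kochav numbered X, the chick embryo is a flat disc of cells on the yolk. A translucent central area pellucida is ringed by the area opaca, which touches the yolk, and the first hypoblast cells gather under the epiblast. The egg supplies maternal RNA, and the embryo's own genome has become active by the time of laying. ES cell cultures keep cells that can self-renew, under inhibitors chosen to hold back differentiation: IWR-1 lowers WNT signalling through tankyrase, Gö6983 inhibits protein kinase C, and SB431542 blocks the activin and NODAL type I receptors. LIF is a cytokine that acts through STAT3.

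The files name genes only by ENSGALG IDs. None of the 15900 shared IDs, the 23 members among them, occurred in the RefSeq gene table of assembly GRCg7b, which uses other IDs. For the members, no gene name, role or position is therefore given. For the same reason the tissue could not be checked against its marker genes, and neither could other cell types or mouse feeder RNA. The cES libraries held 13007413 to 13403975 expected counts and the EGKX libraries 16068898 to 17082488. Of these counts, 95.8% in each cES library and 96.4% to 96.6% in the EGKX libraries fell on shared IDs. At this depth, 0.5 CPM was 6.23 to 6.42 counts in a cES library, and 10 CPM was 155 to 165 counts in an EGKX library.

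Together the members made up a small share of the embryo RNA. They summed to 4.44, 3.05 and 2.77 CPM in cES libraries 1, 2 and 3, against 720, 524 and 535 CPM in EGKX libraries 1, 2 and 3. In counts this was 57, 38 and 35 in the cES libraries, against 11155, 8634 and 8326 in the EGKX libraries. The mean share of the counts was 0.000342% ± 8.95e-05 in cES and 0.0593% ± 0.0111 in EGKX (SD, n = 3 each). The 5 most abundant members held 52.5% of the members' mean CPM in the embryos. In bulk libraries, fewer cells that hold a transcript and less of it per cell cannot be told apart.

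**Figure D1:**
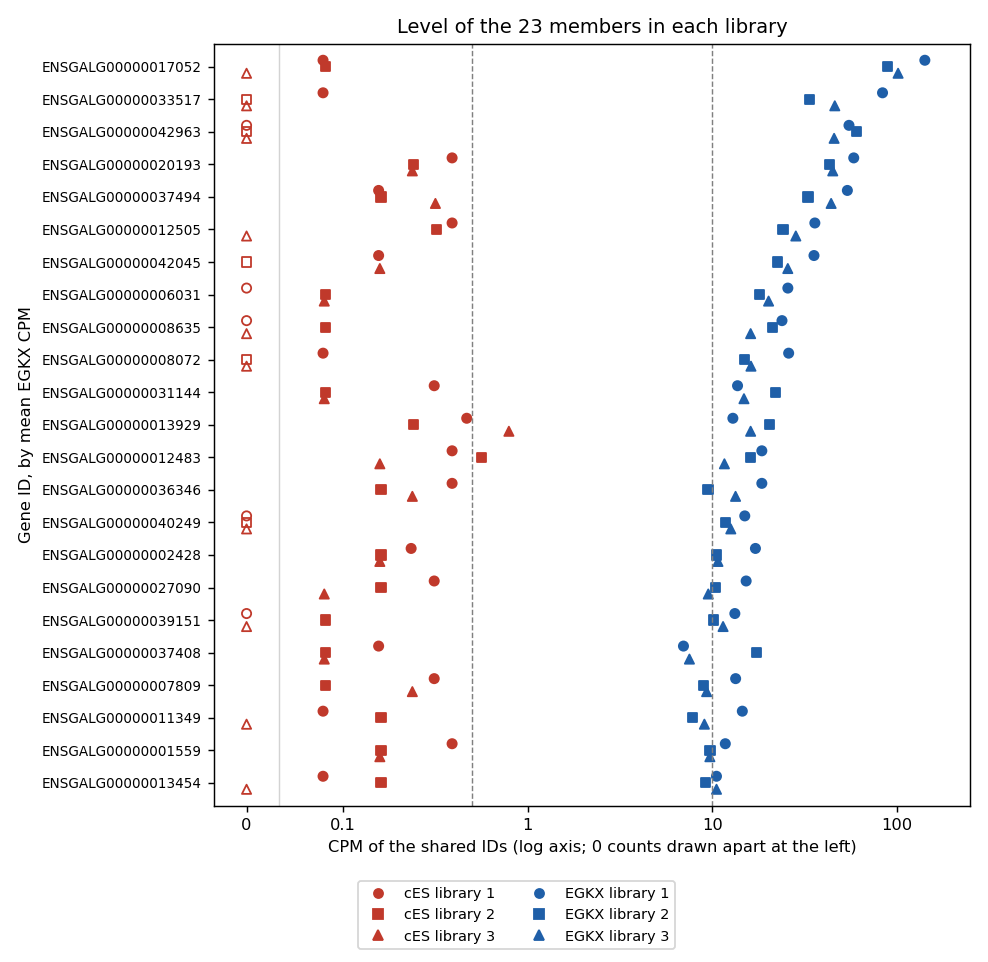
CPM of the shared IDs for each member (rows, by mean EGKX CPM) in the 3 cES libraries (red) and the 3 EGKX libraries (blue), on a log axis with counts of 0 drawn apart as open symbols. Dashed lines mark 0.5 and 10 CPM. The groups do not overlap for any of the 23 members, which were selected on this contrast. The same, with cES lower, holds for 42.7% of the 11614 IDs tested. Embryo library 1 is the highest embryo library for 18 members (78.3%), against 46.6% of the other 1844 same-model IDs at 10 CPM or more in the embryos.

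The most abundant member in reads was ENSGALG00000017052, a single transcript of 1500 bases in both groups' files. It had 1, 1 and 0 counts in the cES libraries, and 142, 89.2 and 101 CPM in the EGKX libraries. The ratio of EGKX over cES, from the summed counts, was 2092, with an exact 95% counting interval of 579 to 17275. These intervals, and the limits given for counts of 0, take in only the error of counting reads.

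ENSGALG00000033517 (2189 bases in the cES files and 2192 in the EGKX files) had 1 count in cES library 1 and 0 in the other cES libraries. It stood at 83.5, 33.5 and 46.0 CPM in the EGKX libraries, so embryo library 1 was far above the other embryo libraries. ENSGALG00000042963 had 0 counts in all 3 cES libraries, and 55.0, 60.5 and 45.7 CPM in the EGKX libraries. Its level was 681-fold lower in cES if the cES group is set at the limit of 3 counts over its libraries. Its model was 8.46% shorter in the cES files, at 1839 bases against 2009 in the EGKX files.

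ENSGALG00000020193 was the shortest member, with 532 bases in both groups' files. It had 5, 3 and 3 counts (0.389, 0.241 and 0.237 CPM) in the cES libraries, against 58.3, 43.0 and 44.9 CPM in the EGKX libraries. ENSGALG00000037494 had 2, 2 and 4 counts in the cES libraries, against 53.9, 32.9 and 44.0 CPM in the EGKX libraries. Both had counts in every cES library, and their lowest embryo library lay far above their highest cES library.

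The next 5 members averaged 19.0 to 29.5 CPM in the embryos. ENSGALG00000012505 averaged 0.237 ± 0.208 CPM in cES and 29.5 ± 5.96 CPM in EGKX (SD, n = 3 each). ENSGALG00000042045 averaged 0.105 ± 0.0906 CPM in cES and 27.9 ± 6.77 CPM in EGKX. ENSGALG00000006031 had 2 counts over the cES libraries, and 25.6, 18.0 and 20.2 CPM in the EGKX libraries. ENSGALG00000008635 and ENSGALG00000008072 had 1 count each over the cES libraries. The first stood at 23.8, 21.2 and 16.1 CPM in the EGKX libraries and the second at 25.9, 14.9 and 16.2 CPM.

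Of the 23 members, 9 had a mean of 20 CPM or more in the embryos and 14 lay between 10 and 20 CPM. Members made up 3.66% of the 382 same-model IDs between 10 and 20 CPM, 0.924% of the 433 between 20 and 40, 0.911% of the 439 between 40 and 80, and 0.306% of the 327 between 80 and 160. None of the 286 IDs at 160 CPM or more was a member. With a fixed limit of 0.5 CPM in cES, the rule asks for a larger ratio of EGKX over cES at a higher embryo level. It thus favours IDs of low embryo level, and this fall in share is in part selected on. The order of the members was different per base of transcript. In TPM, a share of transcripts that divides by length, ENSGALG00000020193 was the most abundant member, at 208 ± 40.2 TPM in EGKX (SD, n = 3). ENSGALG00000017052 followed at 116 ± 31.2 TPM, and the ranges of 1 SD around these means did not overlap. ENSGALG00000042963 (40.4 ± 6.31), ENSGALG00000037494 (38.8 ± 9.87) and ENSGALG00000033517 (37.2 ± 18.6 TPM) came next and lay within each other's spread. By their mean TPM in the embryos, these 5 members ranked at the 93.0th, 85.5th, 56.4th, 55.0th and 53.2nd percentile of the 1867 IDs. The median over the members was 11.9 TPM, against 33.3 TPM over the 1867 IDs, and 6 members reached that median. The lowest was ENSGALG00000007809, at 4.30 ± 1.09 TPM.

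Reads were listed in the ES cells for 21 of the 23 members. No cES library held more than 3 counts for 13 members, the 2 without reads among them. There were 2 members with 0 counts in all cES libraries, ENSGALG00000042963 and ENSGALG00000040249. The second stood at 15.0, 11.8 and 12.6 CPM in the EGKX libraries. Its level was 166-fold lower in cES if the cES group is set at the limit of 3 counts over its libraries. A further 8 members had 1 to 3 counts over the 3 cES libraries, 9 had 4 to 9 counts and 4 had 10 or more. With cES library 1 or library 2 left out, 4 members were at 0 in the remaining cES libraries. Counts were present in every cES library for 11 members. The word "lost" thus stands for a low level at this depth, and the files hold no time course between the embryo and passage 10.

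The 4 members with 10 or more cES counts held 41.5% of the 130 counts that the members had over the cES libraries. ENSGALG00000013929 had the most, with 6, 3 and 10 counts (0.467, 0.241 and 0.791 CPM) in the cES libraries, against 12.9, 20.4 and 16.1 CPM in the EGKX libraries. Its ratio of EGKX over cES was 33.1 (exact 95% counting interval 21.0 to 55.2), the lowest of the members. ENSGALG00000012483 had 5, 7 and 2 counts in the cES libraries and ENSGALG00000036346 had 5, 2 and 3. The remaining member of these 4 was ENSGALG00000020193. Over all 23 members the median ratio of EGKX over cES was 132, with the 2 members at 0 counts set at their limit. The members' counts summed to 57 in cES library 1 (exact 95% Poisson interval 43.2 to 73.9), 38 in library 2 (26.9 to 52.2) and 35 in library 3 (24.4 to 48.7). These intervals overlap, which does not show that the libraries had equal levels.

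**Figure D2:**
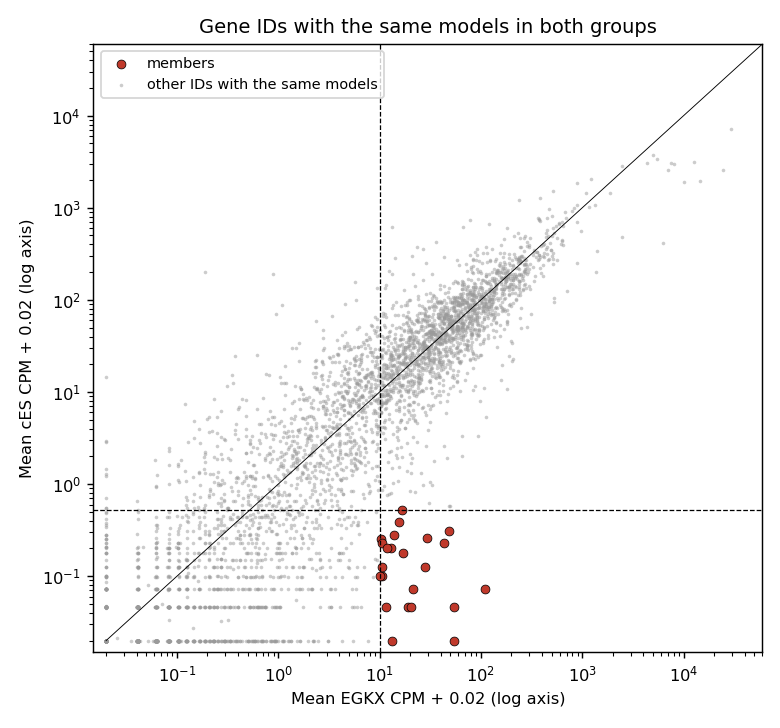
Mean cES CPM against mean EGKX CPM, each plus 0.02 and on log axes, for the 5256 same-model IDs, whose lengths could differ by up to 10%. The solid line marks equal levels and dashed lines mark 0.5 CPM in cES and 10 CPM in EGKX. The 23 members lie in the lower right corner, with other IDs close outside both thresholds.

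The members formed the lower end of a continuous range. Of the 1867 same-model IDs at 10 CPM or more in the embryos, 23 lay under 0.5 CPM in cES, 13 between 0.5 and 1, 15 between 1 and 2, 39 between 2 and 5, 90 between 5 and 10, and 1687 (90.4%) at 10 CPM or more. At the embryo threshold, ENSGALG00000013454 lay just inside (0.0795 ± 0.0803 CPM in cES and 10.1 ± 0.756 CPM in EGKX). ENSGALG00000034716 lay just outside (0.131 ± 0.120 CPM in cES and 9.48 ± 2.75 CPM in EGKX). At the ES cell threshold, ENSGALG00000013929 lay just inside at 0.4996 ± 0.276 CPM in cES, and ENSGALG00000035282 just outside at 0.554 ± 0.00840 CPM in cES with 49.8 ± 4.01 CPM in EGKX. Those differences from the thresholds are smaller than the spread of the libraries in 3 of these 4 cases. At the length threshold, ENSGALG00000012505 (9.46%) lay inside and ENSGALG00000010974 (10.8%) outside. The mirror rule, 10 CPM or more in cES and under 0.5 CPM in EGKX, was met by 6 of 1914 same-model IDs (0.313%).

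In the fit over all shared IDs, all 23 members passed the filter on low counts and were called lower in cES. The same call was made for 43.2% of the 11614 IDs tested, and for 46.2% of the 1867 same-model IDs at 10 CPM or more in the embryos (edgeR, quasi-likelihood F test with p adjusted by Benjamini and Hochberg, threshold 0.05). A drop of 4 or more on the log2 scale was called for 4.41% of all IDs tested and for all 23 members. Groups without overlap, with cES lower, were found for 42.7% of the IDs tested and for all 23 members. The rule selected on this contrast, so these counts say nothing further about the members. The fitted log2 fold change of cES over EGKX had a median of -6.93 over the members (range -12.59 to -5.05), against -0.01 over all IDs tested. Fitted values of members with few cES counts depend on the prior count and are not precise.

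By the median, the spread among the embryo libraries was wider over the members than over other IDs. The rule used the mean of the embryo libraries, which favours IDs that a single high library lifts over 10 CPM, so the spread around the mean was selected on in part. Without EGKX library 1, 18 of the 23 members met the rule, and 7 members had an embryo library under 10 CPM. The coefficient of variation (CV, the SD as a percent of the mean) among the 3 EGKX libraries had a median of 23.2% over the members (range 7.49% to 54.8%). Over the other 1844 same-model IDs at 10 CPM or more in the embryos the median was 7.18%. Without EGKX library 1 these medians were 9.39% and 5.70%. They were 18.4% and 5.48% without library 2, and 27.8% and 6.25% without library 3. The gap was thus smallest without library 1. A CV over fewer libraries is not directly comparable with one over all 3. The CV of counting error alone, taken as the inverse square root of the mean EGKX count, had a median of 6.17% over the members and 3.60% over the other IDs. It is not the median of CVs drawn from 3 libraries. A CV of 20% or more was seen in 15 of 23 members (65.2%) and in 85 of the 1844 other IDs (4.61%). These are descriptions over genes, which are not replicates, and no test was run.

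The medians also lay apart within each range of level. Among IDs between 10 and 20 CPM in the embryos, the median CV was 24.7% over 14 members and 10.4% over 368 other IDs. Between 20 and 40 CPM it was 19.7% over 4 members and 7.96% over 429 others, and between 40 and 80 CPM 20.6% over 4 members and 6.44% over 435 others. The spread also followed the level in the ES cells across IDs that are not members. The median CV among the embryo libraries was 16.1% for IDs between 0.5 and 1 CPM in cES and 15.5% between 1 and 2. It was 11.9% between 2 and 5, 9.51% between 5 and 10, and 6.92% at 10 CPM or more. These ranges also differed in embryo level. The median EGKX level was 15.5 to 20.4 CPM in those under 10 CPM in cES and 54.6 CPM in the last. The last step in CV therefore goes with both levels, which were not separated.

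**Figure D3:**
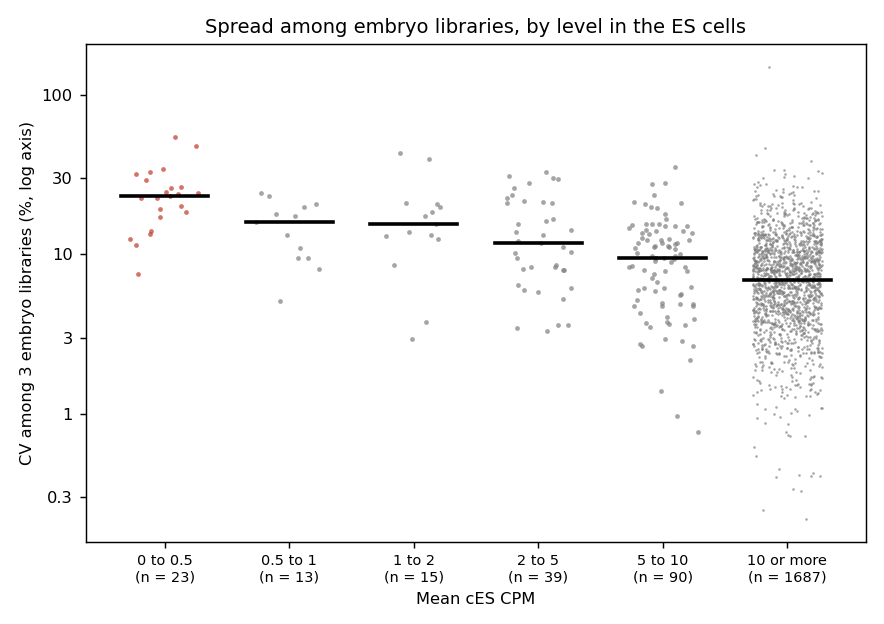
Coefficient of variation among the 3 EGKX libraries (percent, log axis) of the 1867 same-model IDs at 10 CPM or more in the embryos, grouped by mean cES CPM. Each point is an ID, members are red and bars are medians, which stand at 23.2% for the members and 6.92% for IDs at 10 CPM or more in cES. The median EGKX level was 16.5 CPM for the members and 54.6 CPM for those IDs.

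Embryo library 1 was high for most members. It was the highest of the embryo libraries for 18 of 23 members (78.3%), library 2 for 4 and library 3 for 1. Among the other 1844 IDs, library 1 was the highest for 46.6%, library 2 for 36.3% and library 3 for 17.1%. The share lay in between for IDs that were low in the ES cells without being members. Library 1 was the highest for 61.5% of those between 0.5 and 1 CPM in cES, 60.0% between 1 and 2, 64.1% between 2 and 5, 56.7% between 5 and 10, and 45.5% at 10 CPM or more. For those 18 members the CPM in library 1 was 1.21 to 2.10 times the mean of the other embryo libraries, and over all 23 the median ratio was 1.34, against 1.03 over the other IDs. Of the 18, library 2 was the lowest for 14 and library 3 for 4. Over all 23 members, library 2 was the lowest for 65.2% and library 3 for 21.7%, against 34.1% and 44.4% of the other IDs. With TMM scaling, which sets the libraries on a common scale by their bulk of genes, library 1 was again the highest for 18 members, against 35.1% of the 1867 IDs. When the same-model IDs were selected without library 1, it was the highest for 14 of the 18 that met the rule (77.8%) and for 46.1% of the 1843 others. Its CPM was 1.34 times the mean of the other embryo libraries, by the median over those 18 IDs, and 1.03 times over the others. Without library 1 the median CV of the members was 9.39% and that of the other 1844 IDs 5.70%. The depth of library 1 (16068898 counts) was close to that of library 3 (16118546), and the labels give nothing that sets it apart.

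**Figure D4:**
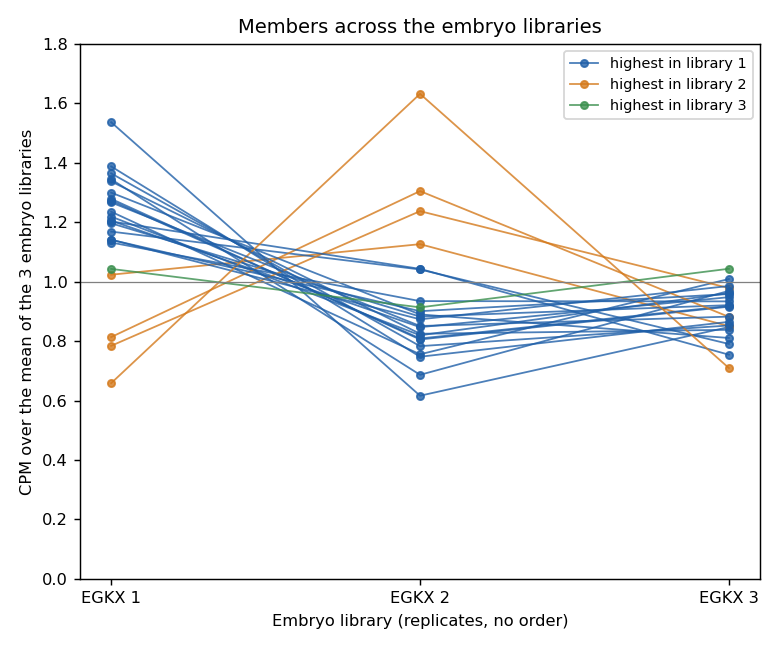
CPM of each of the 23 members in the 3 EGKX libraries, divided by the member's mean over these libraries; a line joins the values of a member and its colour marks the library where it is highest. The 18 blue lines are highest in library 1, the 4 orange lines in library 2 and the green line in library 3. Among the other 1844 same-model IDs at 10 CPM or more in the embryos, these libraries were the highest for 46.6%, 36.3% and 17.1%.

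A few members did not follow library 1. ENSGALG00000037408 had the largest CV of the members, 54.8%, with 2, 1 and 1 counts in the cES libraries, against 6.97, 17.3 and 7.51 CPM in the EGKX libraries. Its level in embryo library 2 was 2.39 times the mean of the other embryo libraries, and only there did it pass 10 CPM. ENSGALG00000031144 stood at 13.7, 22.0 and 14.8 CPM in the EGKX libraries and was also highest in library 2, as were ENSGALG00000013929 and ENSGALG00000042963.

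Next in spread were ENSGALG00000033517 (CV 47.9%) and ENSGALG00000011349 (34.1%). ENSGALG00000011349 had 1, 2 and 0 counts in the cES libraries, against 14.5, 7.83 and 9.05 CPM in the EGKX libraries. The most even members were ENSGALG00000013454 (CV 7.49%), ENSGALG00000001559 (11.4%) and ENSGALG00000040249 (12.5%). ENSGALG00000013454 stood at 10.5, 9.22 and 10.5 CPM in the EGKX libraries and was the single member highest in library 3. The remaining members, ENSGALG00000002428, ENSGALG00000027090, ENSGALG00000039151 and ENSGALG00000007809, averaged 10.6 to 12.8 CPM in EGKX, had 1 to 8 counts over the cES libraries and were highest in embryo library 1.

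The members' median model length was 2054 bases (532 to 4721), against 2335 bases over the other 1844 IDs. The longest was ENSGALG00000008072 and the shortest ENSGALG00000020193. A single transcript was listed for 21 of 23 members (91.3%), against 78.7% of the other IDs, and ENSGALG00000007809 and ENSGALG00000013929 had 2 transcripts each. The listed length was identical in both groups' files for 8 members (34.8%), against 34.3% of the other IDs. It was longer in the EGKX files for 9 of the 23 members and in the cES files for 6, against 811 and 400 of the other 1844 IDs. For 3 members it differed by 5% or more: ENSGALG00000012505, ENSGALG00000042963 and ENSGALG00000042045. Each of these 3 lists a single transcript, so its model had another length in the 2 groups' files. For an ID with several transcripts, the listed length is an average over them, and a difference there need not be one of models. Both members with 2 transcripts were longer in the EGKX files. The expected counts of all 23 members were whole numbers (within 1e-09) in all 6 libraries, as were those of 88.0% of the other IDs. Fractions arise in such estimates where reads are shared out between IDs.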

How the data were processed

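The authors deposited a gene table for each library with expected counts (estimated reads per gene that need not be whole, not normalized), TPM, FPKM and transcript lengths, as RSEM writes them, per the file headers. The deposited TPM values are scaled over all IDs of a file by the authors, and the deposited FPKM values were not used. Per the submitters' processing notes, the tools were FastQC, STAR, RSEM and DESeq2. Their versions, the genome build and the annotation are not given in sources used here. The 2 groups' files list different gene models, so IDs were compared only where models matched: a longer model collects more reads. Models and groups differ together. An effect of the models on the counts of matched IDs thus cannot be told apart from a difference between embryos and ES cells.

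CPM was computed from unrounded counts over the shared IDs. The length difference was taken as a percent of the EGKX length. Counts were rounded and fitted in R 4.3.3 with edgeR 4.0.16 (filterByExpr, TMM, glmQLFit, glmQLFTest; all 6 libraries, no block), over all shared IDs, with an adjusted p under 0.05 called. Counting intervals were exact (Poisson, or Clopper-Pearson for ratios), from scipy 1.17.1. A count of 0 was set at 3 counts over the group. At 3 counts, a library's limit was 0.182 to 0.241 CPM.

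The members and the rule for named IDs (the 10 highest by CPM, the 5 highest by TPM, members at 0 in cES, the 3 most and least variable, and IDs next to the thresholds) were chosen with earlier results of these data known. Other members were added after their values were seen, so that each is accounted for. The 13 gene lists written for this comparison could not be run without gene names. Comparisons of spread by level and by model were also chosen after the data were seen. Library pairs within a group differed by more than counting noise, so each was kept as a library. Chi-square per degree of freedom was 1.46 to 2.17 for the cES pairs and 10.5 to 18.6 for the EGKX pairs. Among the EGKX pairs it was lowest for libraries 1 and 2.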

Additional observations from a re-analysis of the deposited data

Results flagged for a closer look

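Outside the comparison, 53 shared IDs met both CPM conditions but failed the condition on transcripts, on length or on both. Of these, 22 had the same transcripts in both groups' files and failed on length alone. The listed length was longer in the EGKX files for 46 of the 53. The like share over other IDs that failed these conditions was not computed, so this count is not read as a trait of the 53. In the embryos, 34 of these 53 (64.2%) were highest in EGKX library 1, against 78.3% of the members and 46.6% of the other 1844 same-model IDs. Their median CV among the EGKX libraries was 14.1%, against 23.2% and 7.18%. Their median ratio of library 1 to the mean of the other embryo libraries was 1.14, against 1.34 and 1.03. Both traits were thus weaker in these 53 IDs than in the members. Of 8456 IDs listed only in the EGKX files, 533 had a mean of 10 CPM or more there, and their level in cES was not measured.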

How the results depend on the processing

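How many IDs met the rule depended on its thresholds: 49 at 5 CPM and 9 at 20 CPM in EGKX, 36 under 1 CPM in cES, 14 with every library past its threshold, 8 with identical single transcripts and 76 with no condition on models. These settings widen or narrow the rule by construction. Other settings gave 16 to 32 IDs, and the 32 from TPM shared 13 with the 23. Leaving out a library gave 18 (without EGKX library 1) to 23. Members at 0 counts in cES numbered 2 to 4 with a cES library left out, 4 without library 1 and 4 without library 2. The members' median CV among EGKX was 9.39% (without library 1) to 27.8% with a library left out. IDs called in the fit numbered 9883, and 9547 to 10706 under other scalings, filters and tests, including 9823 with the replicate block. The rule fixes the members' direction, so that 23 of 23 were called lower in all 14 alternatives, and 210 refitted values of 15 named members kept direction and call, is no sign of stability. Members highest in EGKX library 1 numbered 18 or 19 by TMM-scaled CPM or TPM, and 14 of 18 when selected without that library. These 3 settings were chosen after seeing the data. Same-numbered libraries' deviations correlated at 0.019, -0.0052 and -0.066, which gave no ground for pairing samples by number. At this depth and with the limit of 3 counts, a count of 0 in a cES library leaves room for a level of 0.234 to 0.241 CPM. Reads that were counted below that level are not the same as 0.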
